A study of Mus musculus with 4 samples.

Results

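The unfolded protein response and the integrated stress response were examined in mouse bone marrow-derived macrophages through 10 genes: Xbp1, Ern1, Atf4, Atf6, Eif2ak3, Ddit3, Trib3, Chac1, Asns and Herpud1. The members were found by Ensembl ID among the 49315 genes of the count table, and each symbol matched 1 row. The macrophages were grown for 7 days from marrow of Lyz2Cre+ mice, which carry Cre recombinase at the myeloid Lyz2 locus, and polarized for 24 hours in serum-free medium. For the 2 M1 libraries the medium held LPS at 100 ng/ml with interferon gamma at 50 ng/ml, and for the 2 M2 libraries it held IL-4 and IL-13 at 10 ng/ml each. Erlotinib, an EGF receptor inhibitor, is part of the wider study, and the sample labels do not state its presence or absence here. Without unpolarized cells in the comparison, "higher" and "lower" describe M1 against M2 and no baseline. The labels do not name separate mice or cultures behind the replicates, so the p-values cover a spread that may be technical.

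The unfolded protein response is set off when misfolded proteins collect in the endoplasmic reticulum (ER). Its sensors are the kinase and RNase IRE1 (gene Ern1), the kinase PERK (Eif2ak3) and the membrane-bound transcription factor ATF6. IRE1 splices the Xbp1 messenger RNA into the form that encodes an active transcription factor. PERK and its sister kinases phosphorylate the translation factor eIF2alpha, which lowers most protein synthesis and lets ATF4 be translated, and this shared branch is the integrated stress response. ATF4 then drives genes such as Ddit3 (the transcription factor CHOP), Trib3, Chac1 and Asns. Gene-level counts measure neither Xbp1 splicing nor the amount of ATF4 protein, so the values below are levels of messenger RNA only.

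The libraries held 34445668 and 28407982 counts for M1 and 26806370 and 39506242 for M2. The polarization markers fitted the labels: Nos2, the inducible nitric oxide synthase, had 8035 and 7258 CPM (reads of a gene relative to the TMM-adjusted size of its library) in the M1 libraries, against 10.6 and 9.66 CPM in the M2 libraries. Mrc1, the mannose receptor, had 2.88 and 2.03 CPM in M1, against 1058 and 1012 CPM in M2. All 9 macrophage markers were detected, with summed levels of 8678 to 8712 CPM in M1 and 4655 to 4769 CPM in M2. Of these, 7 were called higher in M1, and Cd68 (119 CPM in M1 and 1243 CPM in M2) and Csf1r (264 CPM in M1 and 1640 CPM in M2) were called lower. Lyz2, the locus that carries Cre, had 25.3 and 27.3 CPM in M1 against 6.51 and 6.88 CPM in M2. The 6 fibroblast or stromal markers, none at 0, summed to 111 to 119 CPM in M1 and 1137 to 1162 CPM in M2. The 3 collagens and Pdgfra were called lower in M1, while Dcn (15.0 CPM in M1 and 6.88 CPM in M2) and Lum (1.34 CPM in M1 and 0.656 CPM in M2) were called higher. The 4 dendritic cell markers, none at 0, summed to 32.8 to 33.6 CPM in M1 and 2.11 to 2.52 CPM in M2, of which Xcr1 gave 31.4 CPM in M1 and 0.0753 CPM in M2. Among the other dendritic cell markers, Flt3 was called higher in M1 and Zbtb46 lower, and Siglech was not tested. The part of these markers in the differences below was not tested. In bulk RNA, fewer cells of a type and less RNA per cell cannot be told apart.

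Promoters are shown first because 4 of the 10 members share a short element, and of these Herpud1 and Trib3 were higher in M1, Asns was lower and Chac1 was not called. RefSeq gives a promoter of 300 bases, from 250 before the transcription start to 50 from it on, for 9 of the members on GRCm38.p6, and none for Atf6. Each was searched on both strands for TGATGNAAN, the C/EBP-ATF response element (CARE) that ATF4 binds with C/EBP partners. The other motif was TGACGTGG, the core of the unfolded protein response element. CARE matched once each in Asns, Trib3, Chac1 and Herpud1, and in 3.95% of 32851 promoters of the same length. The unfolded protein response element core, present in 0.676% of all, matched in none of the 9, so there was no overlap between matches. The members were chosen as stress response genes, so the matches are a description and not a test, and no match says only that these letters are not in this window. In the sequences, written 5′ to 3′ on the gene's strand, capitals mark the matches, and a match on the other strand reads as its reverse complement.
Asns, chr6:7693160-7693459, minus strand: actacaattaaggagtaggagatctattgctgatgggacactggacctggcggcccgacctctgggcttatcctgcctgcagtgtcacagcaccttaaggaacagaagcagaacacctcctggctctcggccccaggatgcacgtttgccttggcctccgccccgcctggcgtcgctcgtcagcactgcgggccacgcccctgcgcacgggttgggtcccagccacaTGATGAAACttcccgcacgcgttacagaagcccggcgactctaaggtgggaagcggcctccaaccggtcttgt
Trib3, chr2:152344011-152344310, minus strand: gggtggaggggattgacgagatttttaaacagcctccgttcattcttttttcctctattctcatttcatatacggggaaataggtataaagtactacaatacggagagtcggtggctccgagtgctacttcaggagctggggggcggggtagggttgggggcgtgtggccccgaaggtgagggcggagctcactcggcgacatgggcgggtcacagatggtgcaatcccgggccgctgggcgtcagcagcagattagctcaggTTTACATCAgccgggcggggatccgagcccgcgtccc
Chac1, chr2:119350992-119351291, plus strand: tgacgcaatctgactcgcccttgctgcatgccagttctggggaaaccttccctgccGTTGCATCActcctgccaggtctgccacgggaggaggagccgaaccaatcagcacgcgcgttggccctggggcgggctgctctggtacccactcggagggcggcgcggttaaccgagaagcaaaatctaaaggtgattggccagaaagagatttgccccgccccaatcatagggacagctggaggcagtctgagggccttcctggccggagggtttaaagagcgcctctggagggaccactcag
Herpud1, chr8:94386179-94386478, plus strand: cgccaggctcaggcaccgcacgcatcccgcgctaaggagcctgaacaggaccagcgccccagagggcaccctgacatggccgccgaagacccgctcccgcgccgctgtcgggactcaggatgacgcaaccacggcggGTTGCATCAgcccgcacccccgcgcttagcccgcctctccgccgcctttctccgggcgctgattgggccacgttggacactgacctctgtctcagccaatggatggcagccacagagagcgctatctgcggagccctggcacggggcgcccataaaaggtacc

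The CARE match lay 23 to 15 bases before the start in Asns, 194 to 186 bases before it in Chac1 and 113 to 105 bases before it in Herpud1. In Trib3 it lay within the transcript, at bases 14 to 22 from its start.

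Of the 10 members, all of which passed the filter on low counts, 5 were higher in M1, 2 were lower and 3 were not called at an adjusted p under 0.05 (edgeR's quasi-likelihood test, Benjamini-Hochberg over all genes). The 5 were Herpud1, Ern1, Atf4, Trib3 and Ddit3, the 2 were Asns and Eif2ak3, and the 3 were Xbp1, Atf6 and Chac1. Across all 14656 genes tested, 77.2% were called, 37.5% as higher and 39.7% as lower in M1, so the 7 of 10 called is near the background. The groups did not overlap in 7 of the 10 members, against 88.5% of all genes. The differences were modest for these data: none of the 10 reached 1 log2 unit, whereas 18.2% of all genes were called higher and 22.5% called lower by at least that much. The median absolute difference was 0.70 log2 units over the members and 0.76 over all genes, and 9 of the 10 members lay below that median. With glmTreat, which tests against a difference of 1 log2 unit, 0 of the 10 were called, and 0 had an unadjusted p under 0.05. As no member reached that size, this outcome was fixed beforehand and adds nothing to the sizes themselves. Of all 14656 genes, glmTreat called 2163 higher and 2677 lower in M1. M1 and M2 needed different scaling factors, so total-count scaling moved every difference by a median of -0.45 log2 units and upper-quartile scaling by -0.18. Of all calls, 48.6% were higher in M1 under TMM and 28.1% under total-count scaling.

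**Figure D1:**
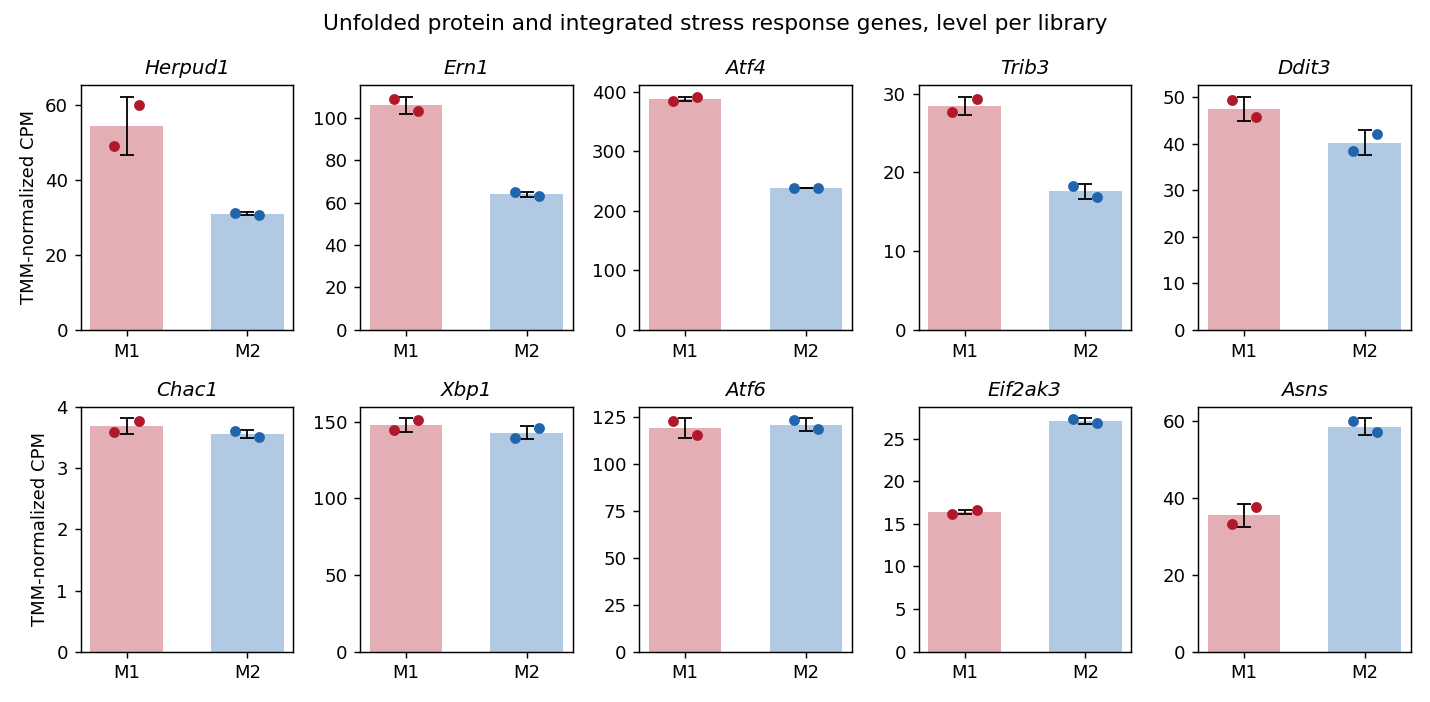
TMM-normalized CPM of the 10 members in the 2 M1 libraries (red, left) and the 2 M2 libraries (blue, right); points are libraries, bars the mean and whiskers the SD, and each panel has its own axis from 0. Atf4 sat at 385 and 391 CPM in M1 against 238 CPM in both M2 libraries, Asns at 33.3 and 37.5 CPM in M1 against 60.0 and 57.0 CPM in M2, and Xbp1, Atf6 and Chac1 overlapped between the groups.

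The sensors differed in opposite directions. Ern1, the IRE1 kinase and RNase, had 109 and 103 CPM in the M1 libraries, against 64.8 and 62.9 CPM in the M2 libraries. Both M1 libraries lay above both M2 libraries, and Ern1 was 1.66-fold higher in M1 (log2 difference 0.73, SE 0.06, adjusted p = 2.82e-08). Eif2ak3, the PERK kinase, had 16.2 and 16.6 CPM in the M1 libraries, against 27.3 and 26.8 CPM in the M2 libraries. Here both M1 libraries were the low ones, and the log2 difference was -0.72 (SE 0.08, adjusted p = 6.71e-07), or 1.65-fold higher in M2. An antisense transcript, Gm43292, shares 485 exon bases with Eif2ak3 and held 4 to 9 counts a library, against 408 to 1236 for Eif2ak3. Atf6, the membrane-bound transcription factor, had 123 and 115 CPM in M1, against 123 and 119 CPM in M2. The groups overlapped and Atf6 was not called (log2 difference -0.02, 95% interval -0.16 to 0.11, adjusted p = 0.739). Atf6 was called lower in M1 under upper-quartile scaling (-0.21, adjusted p = 0.0044) and total-count scaling (-0.47, adjusted p = 3.09e-06).

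The transcription factors downstream of the sensors did not move as 1 group. Xbp1, the substrate of IRE1, had 145 and 151 CPM in M1, against 140 and 146 CPM in M2. The ranges overlapped, and the log2 difference was 0.05 (95% interval -0.08 to 0.18, adjusted p = 0.47). Under total-count scaling Xbp1 was called lower in M1 (-0.40, adjusted p = 2.49e-05). Atf4, the effector of the integrated stress response, had 385 and 391 CPM in the M1 libraries, against 238 and 238 CPM in the M2 libraries. The spread within each group was small beside the gap, and Atf4 was 1.63-fold higher in M1 (log2 difference 0.70, SE 0.06, adjusted p = 5.85e-08). Ddit3, which encodes CHOP, a transcription factor linked to cell death after lasting stress, had 49.4 and 45.7 CPM in M1, against 38.4 and 42.2 CPM in M2. The groups lay close without overlapping, and Ddit3 was 1.18-fold higher in M1 (log2 difference 0.24, SE 0.07, adjusted p = 0.00743). That call was lost without M2 replicate 1 (0.16, adjusted p = 0.202), under upper-quartile scaling (0.05, adjusted p = 0.518) and without a filter on low counts (0.18, adjusted p = 0.071), and under total-count scaling Ddit3 was called lower in M1 (-0.21, adjusted p = 0.0125). Ddit3 also shares 68 exon bases with Mars on the other strand, which held 1180 to 2669 counts a library, and reads from these bases cannot be told apart.

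**Figure D2:**
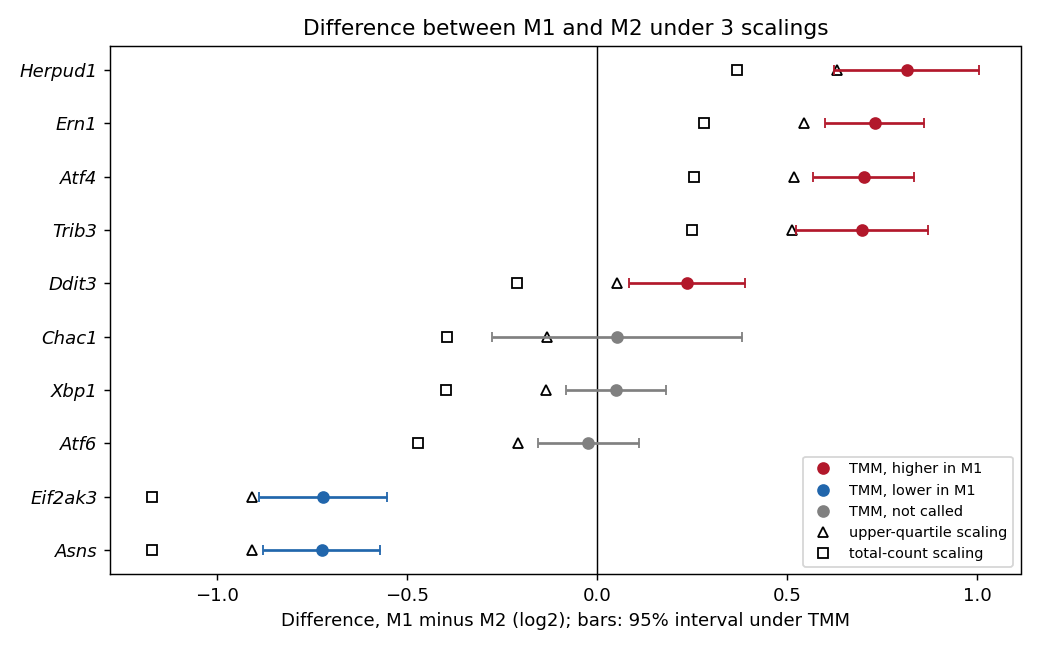
Difference of each member between M1 and M2 (log2, M1 minus M2) under TMM scaling, with its 95% interval, and under upper-quartile (triangles) and total-count scaling (squares). Herpud1, Ern1, Atf4 and Trib3 stayed above 0 and Eif2ak3 and Asns below 0 under all 3 scalings, whereas Ddit3 lay below 0 under total-count scaling and Chac1 and Xbp1 under both other scalings.

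Among the target genes of the pathway, those with a CARE match in the promoters above ranged from higher to lower in M1. Herpud1, an ER membrane protein that takes part in ER-associated degradation, had 49.1 and 60.1 CPM in the M1 libraries, against 31.3 and 30.7 CPM in the M2 libraries. The M1 libraries were further apart than those of any other member, by 0.29 log2 units, but both lay above M2. Herpud1 was 1.76-fold higher in M1 (log2 difference 0.81, SE 0.09, adjusted p = 2.12e-06). Trib3, a pseudokinase that ATF4 and CHOP induce and that restrains them, had 27.6 and 29.3 CPM in M1, against 18.3 and 16.9 CPM in M2. Both M1 libraries were the high ones, with a 1.62-fold difference (log2 0.70, SE 0.08, adjusted p = 1.34e-06). Chac1, which breaks down glutathione, was the least abundant member, with 3.60 and 3.78 CPM in M1, against 3.61 and 3.52 CPM in M2. The groups overlapped and Chac1 was not called (log2 difference 0.05, 95% interval -0.28 to 0.38, adjusted p = 0.765). Its 93 to 162 counts a library gave the widest interval of the 10, and under total-count scaling it was called lower in M1 (-0.40, adjusted p = 0.0282). Asns, asparagine synthetase, had 33.3 and 37.5 CPM in the M1 libraries, against 60.0 and 57.0 CPM in the M2 libraries. Both M1 libraries lay below both M2 libraries, and the log2 difference was -0.73 (SE 0.07, adjusted p = 2.34e-07), or 1.65-fold higher in M2.

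Ratios of counts within a library do not depend on how libraries are scaled against each other, and they give the divergence between members directly. The ratio of Atf4 to Asns counts was 11.6 and 10.4 in the M1 libraries, against 3.97 and 4.18 in the M2 libraries, a 2.69-fold difference. Trib3 to Asns, both with a CARE match, gave 0.830 and 0.780 in M1, against 0.305 and 0.296 in M2, a 2.68-fold difference. Herpud1 to Asns gave 1.48 and 1.60 in M1, against 0.521 and 0.539 in M2. The groups did not overlap in any of these ratios, whatever the scaling. Each pair set a member called higher in M1 against Asns, called lower, and was chosen after values were seen. The ratios therefore describe the divergence and are no test of it. The 2 sensor kinases diverged by as much: Ern1 to Eif2ak3 was 6.71 and 6.21 in M1, against 2.37 and 2.34 in M2, a 2.74-fold difference. This pair, too, set a member called higher in M1 against one called lower, so its ratio restates those calls and is no test. Ern1 to its substrate Xbp1 was 0.750 and 0.682 in M1, against 0.464 and 0.431 in M2. Atf4 to Ddit3 was closer, at 7.80 and 8.55 in M1 against 6.21 and 5.65 in M2, a 1.38-fold difference.

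Levels of different genes were compared as RPKM, CPM per kilobase of annotated exon. Atf4 was the most abundant member in both groups, at 164 ± 1.68 RPKM in M1 and 101 ± 0.0171 RPKM in M2 (SD, n = 2 each). Xbp1 followed at 45.5 ± 1.32 RPKM in M1 and 44.0 ± 1.36 in M2, and Ddit3 held rank 3 in both, at 27.7 ± 1.53 RPKM in M1 and 23.5 ± 1.58 in M2. Eif2ak3 and Chac1 closed the order in both groups, Eif2ak3 at 2.72 ± 0.0464 RPKM in M1 and 4.49 ± 0.0545 in M2 and Chac1 at 2.26 ± 0.0773 RPKM in M1 and 2.18 ± 0.0392 in M2. The middle of the order differed. Asns held rank 7 in M1 at 12.9 ± 1.10 RPKM and rank 4 in M2 at 21.4 ± 0.784, while Herpud1 held rank 4 in M1 at 23.4 ± 3.32 RPKM and rank 5 in M2 at 13.3 ± 0.179. In M1, Trib3, Ern1, Asns and Atf6 lay between 12.9 and 13.4 RPKM and neighbours among them overlapped. In M2 the overlapping neighbours were Herpud1 and Atf6.

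**Figure D3:**
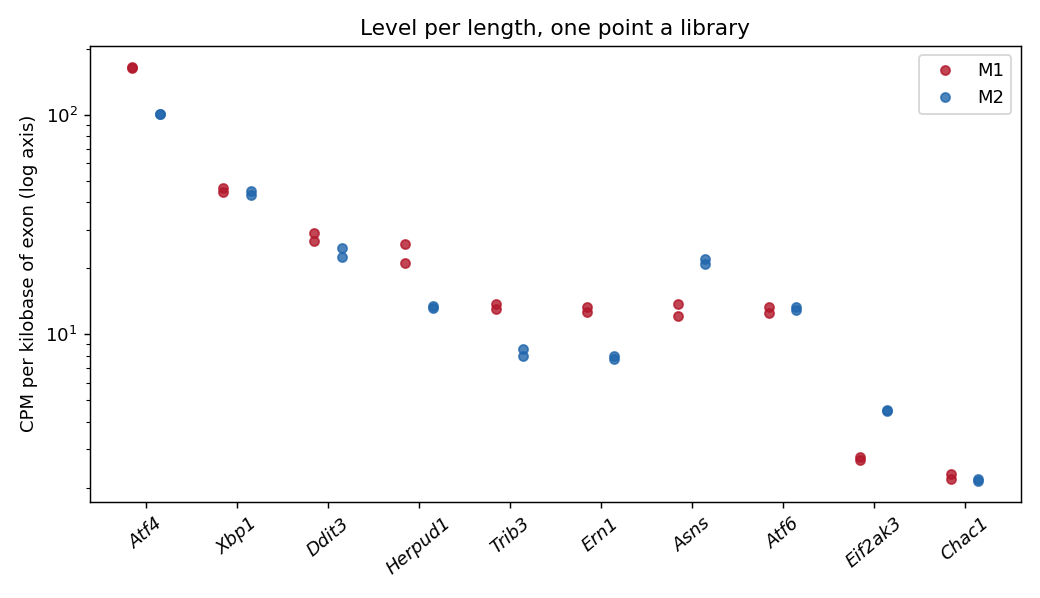
Level of each member in CPM per kilobase of exon (log axis), one point a library, M1 (red, left of each pair) and M2 (blue, right), with genes ordered by their M1 mean. Atf4 lies highest at 164 RPKM in M1 and 101 RPKM in M2, and Trib3, Ern1, Asns and Atf6 lie together in M1, whereas in M2 Asns and Atf6 lie above Trib3 and Ern1, which stay close to each other.

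Other genes of the pathway were described as 7 lists, by how many members were called in each direction. Under TMM these counts are read beside the 37.5% of all genes called higher and the 39.7% called lower in M1. Of the same 14656 genes, total-count scaling called 3342 higher and 8570 lower, and upper-quartile scaling 4500 and 6969. Counts under those scalings are read beside these. Among sensors and regulators, 6 of the 12 tested were higher in M1 and 5 lower. These counts were 4 and 6 under total-count scaling and 5 and 6 under upper-quartile scaling. Traf2, the adaptor that IRE1 recruits, was 4.84-fold higher in M1, and Tmbim6, an ER membrane protein that restrains IRE1, had 1401 ± 6.36 CPM in M1 and 607 ± 4.73 CPM in M2 (SD, n = 2 each). Atf6b, the paralog of Atf6, was 1.82-fold higher in M1. On the lower side were Creb3l1 (-2.11 log2 units) and Creb3l2 (-1.74), ER-anchored transcription factors of the same build as ATF6. Their relatives in the list differed in direction under TMM: Creb3 was higher in M1 (0.50) and Creb3l3 was lower (-1.48). The proteases Mbtps1 and Mbtps2, which cut ATF6 free in the Golgi, were lower in M1 too, with log2 differences of -0.69 and -0.93. Ern2, a second gene of the IRE1 family, was at 0 counts in all 4 libraries and was not tested.

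Most ER chaperones and folding enzymes were called upward: 18 of 25 were higher in M1 and 4 lower, or 12 and 10 under total-count scaling. That scaling called 3342 of all 14656 genes higher and 8570 lower. Under TMM the median log2 difference of the list was 0.55, against -0.04 over all genes. Hspa5, the chaperone BiP that holds the sensors inactive, had 1734 and 1757 CPM in the M1 libraries, against 690 and 695 CPM in the M2 libraries. It was 2.52-fold higher in M1 (adjusted p = 1.00e-10), more than any of the 10 members. Ero1l, the oxidase that drives disulfide formation, was 5.31-fold higher in M1, while the abundant Calr (calreticulin) had 1271 CPM in M1 and 1078 CPM in M2. Calr lost its call without either M2 replicate (0.20, adjusted p = 0.159, and 0.24, adjusted p = 0.0881), under upper-quartile scaling (0.05) and without a filter on low counts (0.18), and reversed under total-count scaling (-0.21, adjusted p = 0.013). The disulfide isomerases differed in direction under TMM. Pdia4 and Txndc5 were lower in M1, with log2 differences of -0.79 and -0.77. Pdia3 (0.43), Pdia6 (0.55) and P4hb (0.65) were higher, and Pdia5 was not called (-0.12).

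Genes of ER-associated degradation, which draws misfolded proteins out of the ER to the proteasome, shared that direction under TMM. Of 21 tested, 16 were higher in M1 and 1 lower, or 7 and 6 under total-count scaling and 15 and 5 under upper-quartile scaling, with a median of 0.50 log2 units. Syvn1, the ubiquitin ligase HRD1, was 2.15-fold higher in M1, and Vcp and its cofactor Nploc4, which pull proteins from the membrane, were 2.09-fold and 2.67-fold higher. Edem1, a mannosidase-like protein of the same route, was 1.87-fold higher. Sel1l, the partner of Syvn1, was the 1 lower gene (-0.20, adjusted p = 0.00713), and its call was lost without M2 replicate 1 (adjusted p = 0.107). Leaving out M1 replicate 1 gave 2 lower genes and leaving out M2 replicate 1 gave 0. Translocation and signal peptide genes had no common direction, with 5 of 16 higher and 5 lower in M1, or 2 and 11 under total-count scaling. Among them, the channel subunit Sec61g was 2.35-fold higher in M1, Srpr, a subunit of the signal recognition particle receptor, 1.64-fold higher and Ssr3 1.46-fold higher. The signal peptidase subunit Sec11c was lower (-0.85 log2 units), as was Ssr4 (-0.45), and Ssr1 was not called (-0.04). Under total-count scaling Ssr3 was not called (0.09) and Ssr1 was called lower (-0.48), as it was under upper-quartile scaling (-0.22).

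The core of the integrated stress response, the eIF2alpha kinases, eIF2, its exchange factor eIF2B and the phosphatase, had 6 of 17 genes higher and 5 lower in M1, or 3 and 12 under total-count scaling. Under TMM neither count exceeds the all-gene share of its direction, 37.5% higher and 39.7% lower. The largest difference was that of Eif2ak2, the RNA-activated kinase PKR, an interferon-stimulated gene, with 351 and 301 CPM in M1 against 37.2 and 34.3 CPM in M2, a 9.15-fold difference. Eif2ak4, the amino acid sensor GCN2, was lower in M1 (-0.58 log2 units), like Eif2ak3, so the 4 eIF2alpha kinases differed in direction. Eif2ak1, the haem-regulated kinase, was higher in M1 by 0.27 log2 units with TMM. Both phosphatase-targeting subunits were higher in M1, Ppp1r15a (GADD34) 4.04-fold and Ppp1r15b (CReP) 3.05-fold. Among the catalytic subunits of the phosphatase, Ppp1cb was higher in M1 (0.50 log2 units), Ppp1cc was lower (-0.58) and Ppp1ca was not called (-0.05). Ppp1ca was called lower under upper-quartile (-0.23) and total-count scaling (-0.50). The 3 genes still called higher when libraries were scaled by total counts were Eif2ak2 (2.74), Ppp1r15a (1.57) and Ppp1r15b (1.16). Eif2ak1 and Ppp1cb were thus not called higher there.

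**Figure D4:**
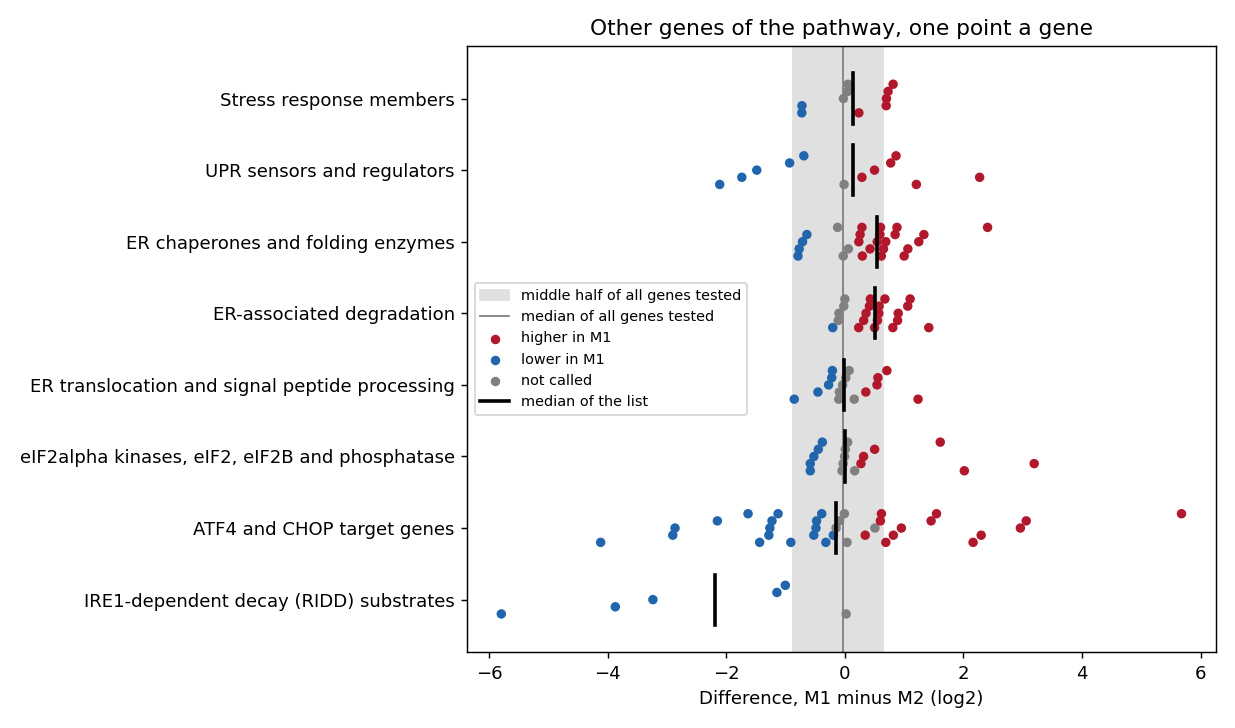
Log2 difference (M1 minus M2, TMM scaling) of each tested gene, with the 10 members on top and the 7 lists below; red points were called higher in M1, blue ones lower, grey ones not called, black bars mark list medians and the grey band spans the quartiles of all genes tested. The medians of chaperones (0.55) and ER-associated degradation (0.50) lie to the right of the all-gene median (-0.04). Under total-count scaling 10 of 25 and 6 of 21 genes of these lists were lower in M1, beside 8570 of all 14656 genes. The target genes of ATF4 and CHOP spread widely to both sides.

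Of 35 target genes of ATF4 and CHOP tested, 13 were higher in M1 and 17 lower, with a median of -0.15 log2 units, and 7 and 10 of these exceeded 1 log2 unit. Over all genes 37.5% were higher and 39.7% lower, with 18.2% and 22.5% beyond 1 log2 unit, so nothing particular to the list is read from these counts. Slc7a11, the cystine transporter, had 965 and 879 CPM in M1 against 18.3 and 17.8 CPM in M2, and the stress-induced regulator Nupr1 had 156 and 134 CPM in M1 against 17.7 and 17.1 CPM in M2. In the other direction, the glutamine transporter Slc1a5 had 8.37 and 8.62 CPM in M1 against 63.4 and 63.5 CPM in M2. Atf3, a partner and target of ATF4, had 647 and 596 CPM in M1 against 771 and 781 CPM in M2 and was lower in M1 (-0.32 log2 units, adjusted p = 6.67e-04). Slc3a2, the heavy chain that pairs with Slc7a11, was 1.94-fold higher in M1. The 3 enzymes of serine synthesis parted within 1 pathway. Phgdh, which opens it, had 1.85 and 2.73 CPM in M1 against 39.2 and 39.3 CPM in M2. Psat1, the second step, had 416 ± 0.279 CPM in M1 and 53.5 ± 1.30 CPM in M2 (SD, n = 2 each). Psph, the last step, was lower in M1 like Phgdh (log2 difference -1.28, adjusted p = 1.01e-07).

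Messages that IRE1 is known to cut, the substrates of regulated IRE1-dependent decay, were largely on the M2 side. Of 6 tested, 5 were lower in M1 and 0 higher with edgeR's quasi-likelihood test, beside 39.7% of all genes lower and 37.5% higher. In the same 4 libraries, 0 were higher at an unadjusted p under 0.05 with that test, DESeq2 or limma-voom. Scara3 rested on 4 counts in each M1 library. At 0.150 CPM in M1 and 2.19 CPM in M2, Scara3 did not pass the filter of 5 CPM in 2 libraries. With that filter, 4 genes of the list were lower, beside 4215 of the 10145 genes then tested. Hgsnat, a lysosomal enzyme, had 200 and 173 CPM in M1 against 407 and 419 CPM in M2. The matrix genes Sparc and Col6a1 were lower in M1, with log2 differences of -3.24 and -5.79. The 6 stromal markers, all detected, were summed at 111 to 119 CPM in M1 and 1137 to 1162 CPM in M2, with the collagens and Pdgfra lower and Dcn and Lum higher in M1, and their part in these values was not tested. Bloc1s1, the substrate most often used as a readout of this decay, had 17.2 CPM in M1 and 16.9 CPM in M2 and was not called (log2 difference 0.02, adjusted p = 0.817). Under total-count scaling all 6 substrates, Bloc1s1 among them, were called lower in M1.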

How the data were processed

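Per the labels' protocols, poly(A) RNA was selected with oligo(dT), made into libraries with a kit that does not mark strand, and read as paired ends. The authors deposited whole-number read counts per gene, not normalized. The submitters' processing notes name GRCm38 as the build, and STAR 2.5.2b, Trimmomatic 0.36, Subread 1.5.2, featureCounts, DESeq and DESeq2 as tools, without their roles or settings. A second deposited table, of fold changes, was not used here.

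Gene IDs were matched to GENCODE vM21 symbols, and 49056 of 49315 had one. Counts were fitted with edgeR 4.0.16 in R 4.3.3: filterByExpr, TMM scaling, a robust quasi-likelihood fit and a two-sided F test of M1 minus M2 on the log2 scale. P-values were Benjamini-Hochberg adjusted over all 14656 genes tested, and a gene was called at an adjusted p under 0.05. Standard errors (SE) are the absolute log2 difference divided by the square root of F. Intervals of 95% use the t distribution with the fit's degrees of freedom. CPM relate a gene's counts to the TMM-adjusted library size. RPKM are CPM per kilobase of the union of a gene's annotated exons. The fit was tested on simulated data with known changes.

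Alternatives were RLE, upper-quartile and total-count scaling, other filters on low counts, DESeq2 1.42.0, limma-voom (limma 3.58.1), a non-robust fit, glmTreat and leaving out each library. The 10 members and the 7 lists were chosen with earlier results of these data known. From each list, the rule named the 2 called genes of at least 5 CPM with the largest difference in each direction and the 2 most abundant genes. Every other list gene named, the ratios between members and the promoter motifs were chosen after values were seen.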

Additional observations from a re-analysis of the deposited data

How the results depend on the processing

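Herpud1, Ern1, Atf4 and Trib3 were called higher in M1, and Asns and Eif2ak3 lower, under 12 of the 13 alternatives, the exception being glmTreat, which asks for more than 1 log2 unit. Calls against the sign of the reported difference appeared under total-count scaling, among them Xbp1 (-0.40), Chac1 (-0.40), Ddit3 (-0.21) and Calr (-0.21). Bloc1s1 was called lower there too. Differences that were not called also changed sign. Xbp1 and Chac1 lay at -0.13 each under upper-quartile scaling and at -0.01 each without a filter, and Atf6 at 0.0026 with RLE scaling, 0.0025 with DESeq2 and 0.02 without M1 replicate 2. Total-count scaling gave 6 members lower in M1, 10 chaperones lower, and 7 degradation genes higher and 6 lower. It gave 2 translocation genes higher and 11 lower, 3 genes of the eIF2 list higher and 12 lower, and all 6 decay substrates lower. Of all 14656 genes it called 3342 higher and 8570 lower. Upper-quartile scaling gave 5 degradation genes, 9 translocation genes and 9 eIF2 genes lower, beside 6969 of all genes. The TMM scaling factors were 0.846 and 0.866 for the M1 libraries and 1.17 and 1.17 for the M2 libraries, and total-count scaling leaves them out. Why the factors differ was not tested. With glmTreat, 0 members were higher and 0 lower, which was fixed beforehand because no member reached 1 log2 unit. Higher and lower calls were then 2 and 2 for sensors, 3 and 0 for chaperones, 1 and 0 for degradation and 1 and 0 for translocation. They were 3 and 0 for the eIF2 list and 7 and 8 for targets of ATF4 and CHOP. Fewer calls follow from the stricter null of glmTreat, which called 2163 of all 14656 genes higher and 2677 lower. Leaving out each library moved the count of degradation genes lower in M1 between 0 and 2, and the count of members higher in M1 between 4 and 5. No paired analysis was possible because the labels give no replicate numbers. Chac1 fell below the filter of 5 CPM and has no value there. Depth limits Chac1 most.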
